A study of Mus musculus with 8 samples.

Results

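Binding of the transcription factor subunit NF-YA was examined at 59 genes that serve DNA replication and the synthesis of its nucleotides, in muscle stem cells (MuSCs) of control and Taf4asKO mice. All peaks whose deposited gene symbol was one of these 59 genes were taken, which gave 27 of 7196 peaks for 21 of the 59 genes. The 59 genes were sorted into 7 roles, from the helicase that opens the DNA to the chaperones that wrap the new strands in histones. The assay was CUT&RUN, in which an antibody directs a nuclease to the protein of interest and the released DNA fragments are sequenced. The 8 libraries fall into 4 groups of 2, which are NF-YA and mouse IgG libraries of control MuSCs and of Taf4asKO MuSCs. The columns used here hold only the 4 NF-YA libraries, and the IgG libraries were not analysed here. In Taf4asKO mice, exons of Taf4a flanked by loxP sites are removed by a Cre recombinase that is driven by Pax7, a gene of muscle stem cells, and switched on with tamoxifen. The control libraries are labelled WT. As controls the study lists mice that carry the loxP sites in Taf4a, with or without the Cre allele. It does not say which of these gave the control libraries. All mice are C57BL/6, the cells of both genotypes were sorted by flow cytometry and grown in culture, and their labelled state is activated/proliferating, so that neither group describes resting stem cells in the muscle. TAF4A is a subunit of TFIID, the complex that brings RNA polymerase II to promoters. A binding assay of another protein checks neither the loss of Taf4a nor the identity of the cells, and neither could be examined in these libraries.

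NF-Y is a trimer in which NF-YA contacts the DNA and NF-YB and NF-YC form a dimer with a histone fold. It recognises the CCAAT pentamer, which lies upstream of the start of many genes of proliferating cells. Before S phase, the origin recognition complex, CDC6 and CDT1 load the MCM helicase onto DNA. Cyclin-dependent kinases and the GINS and CDC45 proteins then switch the helicase on, and polymerases, the sliding clamp PCNA and the single-strand binding protein RPA copy both strands. Most of these genes are known targets of the E2F factors, which act at the passage from G1 to S phase. Genes of mitosis are instead known for CCAAT boxes together with a CHR motif, an element read by the DREAM complex and B-MYB. In muscle, stem cells carry out this programme when they leave quiescence to make new myoblasts.

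The DNA under the peaks is shown first. For each role, the peak at a gene start with the highest mean signal in the control libraries was chosen, and the peak of Ccne1 was added because it was the only one of the 27 with a called difference between the genotypes. The Mcm5 peak was added after its values had been seen, since it holds both CCAAT and E2F letters. Each sequence is taken from the RefSeq genome GRCm38.p6 (mm10) and reads 5′ to 3′ on the strand of the gene. For the peaks at gene starts it is the part of the peak upstream of the start and outside annotated exons, at most 300 bases long, rather than the centre of the peak, and for Ccne1 it is the central 300 bases. Capitals mark CCAAT or its complement ATTGG, and in Mcm5 also the E2F letters described further on.
Mcm10, MCM helicase and its loading, chr2:5012792-5013091, minus strand: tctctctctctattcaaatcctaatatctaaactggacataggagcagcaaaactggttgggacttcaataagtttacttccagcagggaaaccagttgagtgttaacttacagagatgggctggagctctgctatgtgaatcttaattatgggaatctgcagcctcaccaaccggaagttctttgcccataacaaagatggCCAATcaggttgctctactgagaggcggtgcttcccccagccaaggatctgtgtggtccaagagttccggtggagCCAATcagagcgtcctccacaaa
Gins2, origin firing, chr8:120589305-120589493, minus strand: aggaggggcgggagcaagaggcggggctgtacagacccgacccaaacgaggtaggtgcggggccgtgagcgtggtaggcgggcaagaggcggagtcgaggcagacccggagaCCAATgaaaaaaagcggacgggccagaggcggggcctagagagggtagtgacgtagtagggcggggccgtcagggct
Pold2, polymerases and primase, chr11:5878293-5878447, minus strand: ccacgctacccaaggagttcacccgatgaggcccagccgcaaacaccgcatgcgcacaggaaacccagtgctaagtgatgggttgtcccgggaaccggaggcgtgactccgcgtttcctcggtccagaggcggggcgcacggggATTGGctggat
Rpa2, clamp, clamp loader, RPA and Okazaki fragments, chr4:132768032-132768331, plus strand: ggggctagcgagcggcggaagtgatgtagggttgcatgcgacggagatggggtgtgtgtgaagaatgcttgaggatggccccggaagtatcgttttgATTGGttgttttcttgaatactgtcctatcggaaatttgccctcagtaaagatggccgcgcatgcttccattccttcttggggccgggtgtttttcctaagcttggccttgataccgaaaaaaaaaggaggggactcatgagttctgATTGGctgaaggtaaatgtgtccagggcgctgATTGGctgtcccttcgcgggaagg
Rrm2, nucleotide synthesis, chr12:24708146-24708240, plus strand: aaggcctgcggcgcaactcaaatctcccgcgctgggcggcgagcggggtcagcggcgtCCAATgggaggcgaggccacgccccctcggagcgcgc
Asf1b, chromatin assembly and histone mRNA, chr8:83955283-83955506, plus strand: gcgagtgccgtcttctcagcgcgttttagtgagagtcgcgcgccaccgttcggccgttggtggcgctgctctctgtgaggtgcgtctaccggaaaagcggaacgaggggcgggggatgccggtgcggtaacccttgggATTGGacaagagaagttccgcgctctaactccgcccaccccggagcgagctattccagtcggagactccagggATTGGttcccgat
Ccne1, G1/S cyclins and kinases, chr7:38112166-38112465, minus strand: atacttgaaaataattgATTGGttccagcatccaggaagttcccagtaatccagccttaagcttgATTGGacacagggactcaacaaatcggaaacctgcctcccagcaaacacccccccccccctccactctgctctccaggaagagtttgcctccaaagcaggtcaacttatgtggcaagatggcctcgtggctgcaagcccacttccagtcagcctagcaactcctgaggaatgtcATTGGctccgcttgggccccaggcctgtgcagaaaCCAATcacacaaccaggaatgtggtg
Mcm5, MCM helicase and its loading, chr8:75109350-75109568, plus strand: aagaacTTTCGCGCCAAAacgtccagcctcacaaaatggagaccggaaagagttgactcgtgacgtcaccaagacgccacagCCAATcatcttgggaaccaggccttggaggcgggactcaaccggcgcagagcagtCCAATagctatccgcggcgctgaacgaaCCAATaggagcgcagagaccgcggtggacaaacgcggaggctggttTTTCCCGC
The Mcm10, Gins2, Rrm2 and Mcm5 stretches carry the pentamer on the gene strand, and those of Pold2, Rpa2 and Asf1b carry it on the other strand. The Ccne1 stretch, which is not at a gene start, holds 4 pentamers in both orientations.

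The signal of a peak is given below in normalised reads, that is, the reads of a library in the peak after the authors divided them by a size factor and rounded. The libraries differed in depth by up to 6.61 times, from 111269 reads in peaks in control replicate 2 and 351696 in control replicate 1 to 505389 and 735063 in the Taf4asKO replicates 2 and 1. The median peak held 4.91 reads in control replicate 2 and 16.3 to 41.7 reads in the other libraries, so that weak peaks are least certain in the controls. Both control libraries were shallower than both Taf4asKO libraries, and the part of depth in any difference was not tested. Fewer cells with a bound site and less binding per cell cannot be told apart in such bulk libraries. The study lists the 2 libraries of each genotype as replicates and used littermates as controls, but does not say for these libraries whether they come from separate mice or cultures, so that p-values measure the spread between libraries, which may be technical.

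Of the 59 genes, 21 (35.6%) had a peak in the deposited assignment, which takes for each peak the nearest gene start within 10000 bases. In 19 genes (32.2%) the centre of a peak lay within 1000 bases of the start. Among 21951 protein-coding genes, 3197 (14.6%) had a peak and 2356 (10.7%) had one near the start. The share was highest for chromatin assembly and histone mRNA, where 3 of 4 genes had a peak (Asf1b, Chaf1a and Slbp), and for the MCM helicase and its loading, where 9 of 16 genes (56.2%) had one. In the latter group Mcm3, Mcm4, Mcm5 and Mcm6 of the helicase ring, its activator Mcm10, Orc2 and Orc6 of the origin recognition complex, the loader Cdc6 and Gmnn, whose product geminin inhibits loading, were marked by NF-YA. Fewer genes of the fork itself were. Of the polymerases and primase, 2 of 9 genes had a peak (Pold2 and Pole), and of the clamp, clamp loader, RPA and Okazaki fragment group 2 of 11 did (Pcna and Rpa2). The origin firing genes with a peak were Gins1, Gins2 and Gins4, of 7. Rrm2 was the only one of 5 genes of nucleotide synthesis, and Ccne1 the only one of 7 cyclins and kinases of the G1/S passage.

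**Figure D1:**
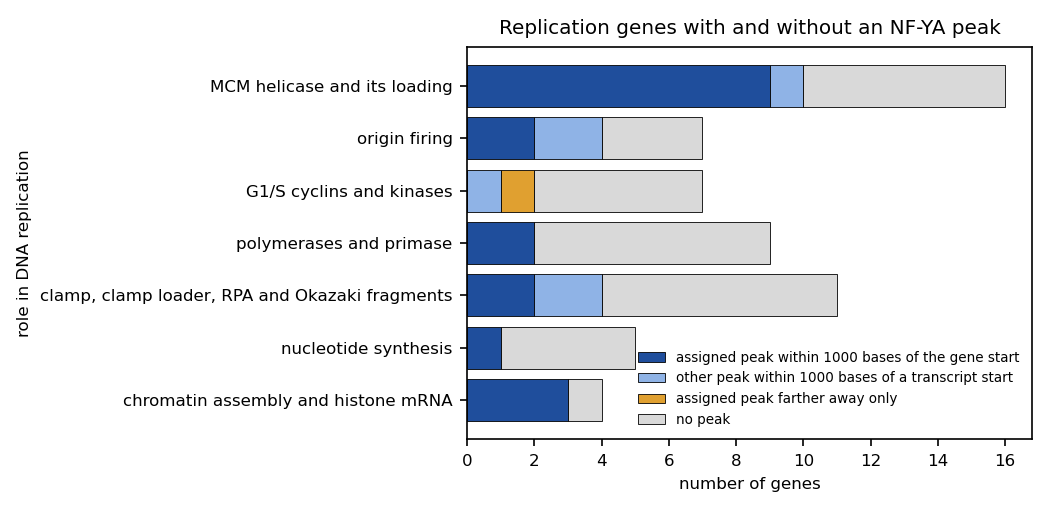
Number of genes (horizontal axis) in each of the 7 roles (vertical axis), divided by whether the gene has an assigned NF-YA peak within 1000 bases of its start, another peak within 1000 bases of a transcript start, an assigned peak farther away only, or no peak. A peak at the start was found in 9 of 16 genes of the MCM group and in 3 of 4 genes of chromatin assembly and histone mRNA, and 33 of the 59 genes had no peak of any kind.

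The other 38 genes had no assigned peak. They were Mcm2, Mcm7, Cdt1, Orc1, Orc3, Orc4 and Orc5 of the loading machinery, Cdc7, Dbf4, Cdc45 and Gins3 of origin firing, Ccnd1, Ccnd3, Ccne2, Cdk2, Cdk4 and Cdk6 of the cyclins and kinases, and Pola1, Pola2, Pold1, Pold3, Pole2, Prim1 and Prim2 of the polymerases and primase. Further genes of the fork without a peak were the 5 subunits of the clamp loader, Rfc1, Rfc2, Rfc3, Rfc4 and Rfc5, together with Rpa1, Rpa3, the flap nuclease Fen1 and the ligase Lig1. Rrm1, Tk1, Tyms and Dut of nucleotide synthesis and Chaf1b completed the group. A gene without a peak is one that the peak caller and the nearest-start rule left without one, and weaker binding was not measured.

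The nearest-start rule hid some of these genes behind a neighbour. Mcm7, which encodes a helicase subunit, shares its start region with Ap4m1, and 2 peaks given to Ap4m1 lay 7 and 162 bases from annotated starts of Mcm7. The first had 156 and 130 normalised reads in the control libraries and 167 and 152 in the Taf4asKO libraries. The second had 101 and 124 against 102 and 118, so that the groups overlapped at both. The peak of Rpa3, a small subunit of RPA, was given to Umad1 at 64 bases and had 108 and 101 against 103 and 112. That of Rpa1, the large subunit, was given to Smyd4 at 109 bases and had 94 and 108 against 67 and 95, with overlapping groups. The peak 103 bases from a start of Cdc45, an activator of the helicase, was given to Ufd1. It had 119 and 127 in control and 100 and 99 in Taf4asKO, so that both Taf4asKO values were lower, with a log2 fold change of -0.30 and an adjusted p of 0.356 by limma. Ccnd3, a D-type cyclin, had 2 peaks with no assigned gene at starts of its transcripts, with 17 and 10 against 14 and 14, and 37 and 39 against 37 and 39. These peaks, at chr17:47593317-47593397 and chr17:47595756-47596129, lie far inside the gene, which starts at chr17:47505051. A peak given to Abhd12 lay 610 bases from the start of Gins1 and had 69 and 42 against 59 and 64. With these peaks 25 of the 59 genes had an NF-YA peak within 1000 bases of a transcript start, and the share of all genes under this rule was not counted. All 8 of the peaks in this paragraph hold CCAAT in their central 200 bases, and limma gave adjusted p-values from 0.356 to 1 for them.

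The comparison of Taf4asKO with control asks whether NF-YA still occupies these genes when TAF4A is missing. It was made with limma on log2(value + 1) over all 4746 peaks with a mean of at least 10 normalised reads, and a call is a Benjamini-Hochberg adjusted p under 0.05. Of the 27 peaks, 26 were tested, from all 21 genes with a peak, and only the peak upstream of Ccne1 was called, with a lower signal in Taf4asKO. With equal medians of the libraries, 6 were called, all lower (Ccne1, Gins2, Mcm10, Mcm4, Mcm5 and Pcna). Over all tested peaks 45 (0.948%) were called, of which 29 (0.611%) were lower in Taf4asKO. The calls over all peaks split into 16 higher and 29 lower, but this split moved with the scaling, to 55 higher and 259 lower when the libraries were given equal medians, to 30 and 31 with equal totals, and to 54 and 24 when they were centred on the peaks whose mean was 100 or more. An unadjusted p under 0.05 was found for 9 peaks of replication genes, 8 lower and 1 higher (Pole, weak in control), and for 17.9% of all tested peaks.

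Both Taf4asKO values lay below both control values at 11 of the 26 peaks (42.3%), against 28.6% of all tested peaks. They lay above at 3 (11.5%), which were the peak of Pole, that of Gins4 and the downstream peak of Gmnn, against 19.3% of all tested peaks, and Pole entered the test only through its Taf4asKO values. The groups overlapped at the other 12. The median log2 fold change of the 26 peaks was -0.19, and that of all tested peaks -0.04. Both depended on the scaling. The former was -0.34 for equal medians, -0.04 for equal totals and 0.04 for centring on strong peaks. The latter was -0.17, 0.1 and 0.19 in these 3 settings. Strong and weak peaks were described apart, and no test was run between them. The 10 peaks with a mean of at least 100 normalised reads all had a log2 fold change below 0, with a median of -0.50, and at 8 of them (80.0%) the groups did not overlap. Of these 10, the peaks of Ccne1, Mcm4 and Pcna reached a mean of 100 only through their control values, with Taf4asKO means of 63.5, 90.0 and 86.0, so that the count and the median are a description. Strong peaks were lower across the genome as well. Of 971 tested peaks with such a mean, 84.7% had a log2 fold change below 0, the median was -0.22 and at 59.0% both Taf4asKO values were lower. The 16 weaker peaks had a median of 0.08, against 0.05 for all peaks with a mean from 10 to 100. Centring the libraries on the strong peaks, a setting chosen after the data had been seen, shifted the median of all tested peaks to 0.19. Among the 10 strong peaks, Rpa2 then stood at 0.09, Orc6 at 0.01 and Mcm3 at 0.00, while the other 7 remained below 0.

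**Figure D2:**
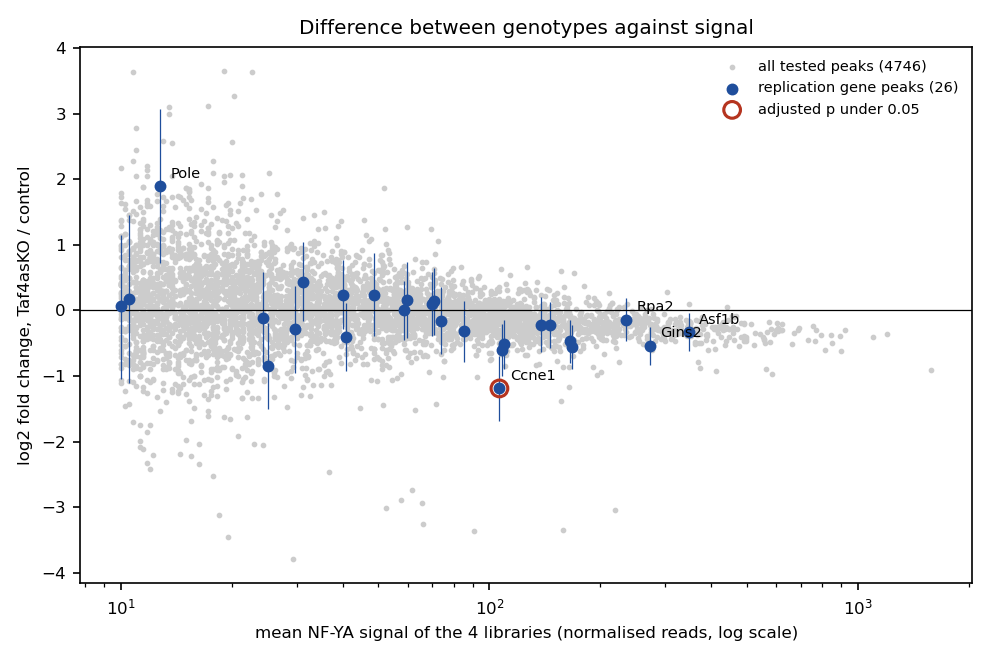
Log2 fold change of Taf4asKO against control (vertical axis) against the mean signal of the 4 libraries in normalised reads (horizontal axis, log scale) for the 4746 tested peaks (grey) and the 26 tested peaks of replication genes (blue, with 95% confidence intervals from limma). The peak of Ccne1 (red circle, -1.19) is the only one of the 26 with an adjusted p under 0.05, and all 10 blue points with a mean of at least 100 lie below 0. Among these 10, Ccne1, Mcm4 and Pcna reach that mean only through their control values.

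The peak of Ccne1 (ENSMUSG00000002068), which encodes cyclin E1, the partner of CDK2 at the entry into S phase, lay at chr7:38112030-38112601 (mm10). Its centre was 4782 bases upstream of the gene start, in sequence that the annotation gives to no gene. In the control libraries it had 182 and 117 normalised reads, compared with 62 and 65 in the Taf4asKO libraries. Both Taf4asKO libraries were well below both controls, and the controls themselves were not close to each other. The means were 149.5 ± 46.0 (SD, n = 2) in control and 63.5 ± 2.12 (SD, n = 2) in Taf4asKO, or 42.5% of control. The log2 fold change was -1.19 (SE 0.22, 95% interval -1.69 to -0.69), with an adjusted p of 0.0473 by limma. Before normalisation the values stood for about 175 and 35.9 reads in control and 144 and 95.4 in Taf4asKO. With any 1 library left out the peak stayed lower. The log2 fold change was -0.87 without control replicate 1 and -1.5 without control replicate 2. It was -1.15 without Taf4asKO replicate 1 and -1.22 without Taf4asKO replicate 2. Such a fit leaves 1 library in a group, so that only the fold change is given here. Without the minimum on the mean the adjusted p was 0.285. The peak holds 6 CCAAT pentamers within its 572 bases, 4 of them in the stretch printed above, and 9.09% of its bases lie in annotated repeats. No peak was found within 1000 bases of the start of Ccne1.

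**Figure D3:**
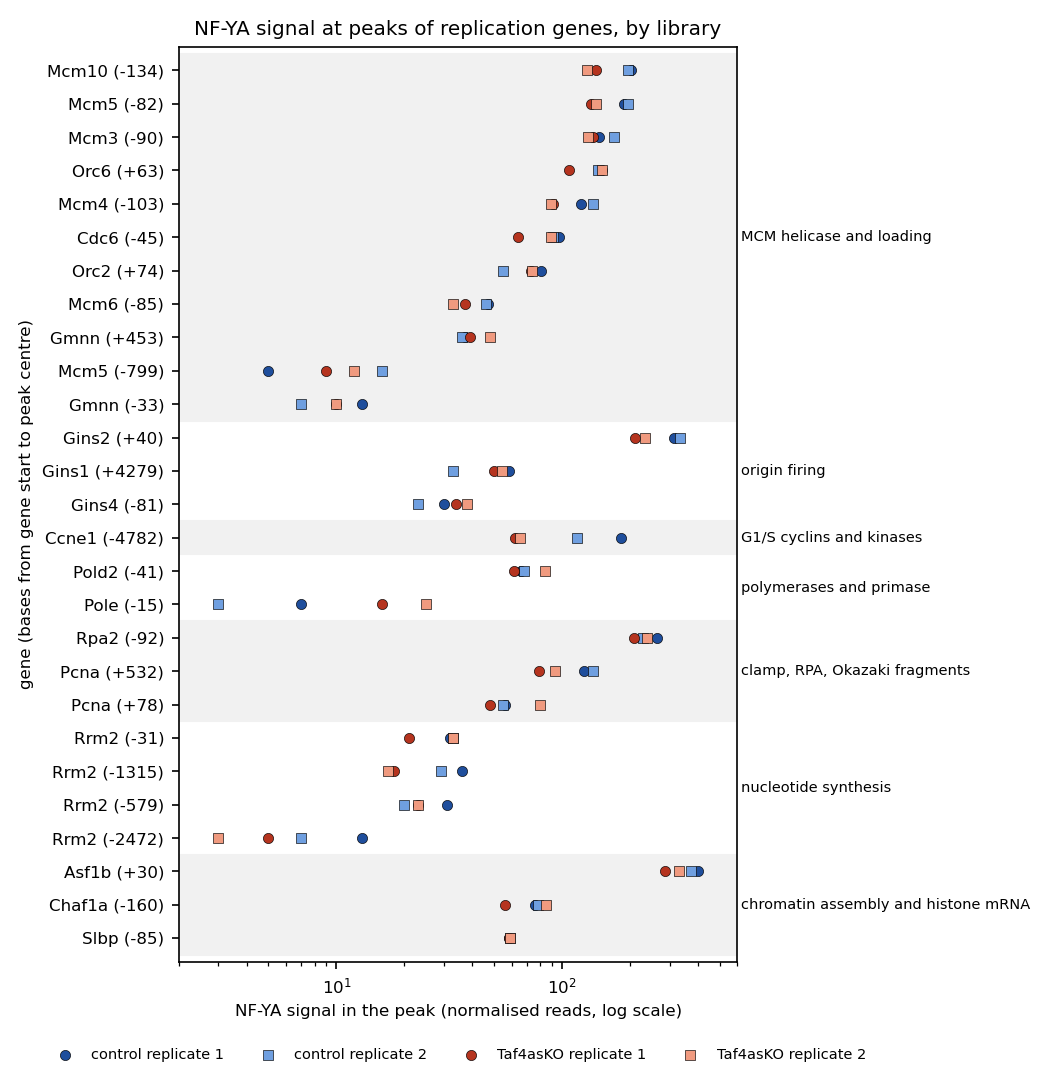
NF-YA signal in normalised reads (horizontal axis, log scale) of the 27 peaks of replication genes (vertical axis, with the distance in bases from the gene start to the peak centre, negative for upstream) in each of the 4 NF-YA libraries. Grey and white bands mark the 7 roles. At the peak of Ccne1 the controls stand at 182 and 117 and the Taf4asKO libraries at 62 and 65, whereas at the peak of Slbp all 4 libraries lie between 58 and 59.

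Among the genes of the MCM helicase and its loading, the strongest peak was at the start of Mcm10 (ENSMUSG00000026669), whose product helps to activate the helicase. At chr2:5012721-5013129 it had 203 and 196 normalised reads in control and 141 and 129 in Taf4asKO. Both Taf4asKO values were below both controls, with 67.7% of the control mean. The log2 fold change was -0.56 (SE 0.15), with an adjusted p of 0.109 by limma. Mcm5 (ENSMUSG00000005410), a subunit of the helicase ring, had 189 and 196 against 135 and 142 at chr8:75109350-75109624. Here too the groups did not overlap, at a log2 fold change of -0.47 (SE 0.15) and an adjusted p of 0.15. Mcm4, another ring subunit, had 122 and 137 against 91 and 89 at chr16:15637359-15637646, with a log2 fold change of -0.52 (SE 0.17) and an adjusted p of 0.16. At Mcm3 (chr1:20820269-20820535) the values were 146 and 170 against 138 and 131, and at Mcm6 (chr1:128359661-128359837) they were 47 and 46 against 37 and 33. At their main peak all 5 MCM genes with an assigned peak had lower values in both Taf4asKO libraries, which was so at 28.6% of all tested peaks and at 59.0% of those with a mean of at least 100, while both peaks next to Mcm7 had overlapping groups. In the unweighted fit with the authors' scaling no MCM peak was called. With equal medians Mcm10, Mcm5 and Mcm4 were, with adjusted p-values of 0.0217, 0.0382 and 0.0465 by limma, and Mcm10 also with weights from the reads, at 0.0403.

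Of the genes that load the helicase, Cdc6, the ATPase that brings MCM to the origin, had 97 and 91 against 64 and 89 at chr11:98907677-98907834, lower in both Taf4asKO libraries but by little in the second. Orc6 had 151 and 144 against 107 and 150 at chr8:85299484-85299906, with overlapping groups, and the subunit Orc2 had 81 and 55 against 73 and 74 at chr1:58504892-58505178. The log2 fold changes of these 3 peaks were -0.31, -0.22 and 0.14, with adjusted p-values of 0.447, 0.557 and 0.775 by limma. Gmnn had a peak 453 bases inside the gene at chr13:24761372-24761568, over the starts of other annotated transcripts of the gene, with 37 and 36 against 39 and 48. Both Taf4asKO values were above both controls, at a log2 fold change of 0.24 (SE 0.24). A weaker peak at the start of Gmnn had 13 and 7 against 10 and 10, and a weak upstream peak of Mcm5 had 5 and 16 against 9 and 12, values that rest on few reads in the controls.

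Of the origin firing genes, Gins2 (ENSMUSG00000031821), a subunit of the GINS complex that joins the helicase to the polymerase, carried a strong peak at chr8:120589035-120589493. It had 315 and 333 normalised reads in control and 210 and 234 in Taf4asKO, without overlap. The means were 324.0 ± 12.7 and 222.0 ± 17.0 (SD, n = 2 each), or 68.5% of control, and the log2 fold change was -0.54 (SE 0.13, 95% interval -0.84 to -0.25). Its adjusted p of 0.0967 by limma was the second smallest of the 26 peaks and missed the threshold. Gins4, another subunit, had 30 and 23 against 34 and 38 at chr8:23237675-23237804, higher in both Taf4asKO libraries, with a log2 fold change of 0.44 (SE 0.27) and an adjusted p of 0.407. Gins1 had 58 and 33 against 50 and 54 at chr2:150909486-150909872, with overlapping groups. This Gins1 peak lay 4279 bases inside the gene from the start used in the table, at the start of other annotated transcripts of the gene.

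Of the polymerase genes, Pold2, the second subunit of polymerase delta, had 66 and 68 against 61 and 84 at chr11:5878218-5878447, with overlapping groups. Pole, the catalytic subunit of the leading-strand polymerase epsilon, had 7 and 3 against 16 and 25 at chr5:110286243-110286338. Both Taf4asKO values were higher. The control values stand for about 6.73 and 0.92 reads, and the Taf4asKO values for 37.1 and 36.7. With a control mean of 5.0 and a Taf4asKO mean of 20.5, this peak passed the minimum of 10 only through the group where it was high, so that its fitted difference (adjusted p of 0.119 by limma) supports no direction.

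In the group of the clamp and RPA, Pcna (ENSMUSG00000027342), the clamp that tethers polymerases to DNA, had 2 peaks. The stronger had its centre in an intron, 532 bases from the start at chr2:132252515-132253049, and reached into the first exon. It had 125 and 137 normalised reads in control and 79 and 93 in Taf4asKO. The groups did not overlap, at 65.6% of the control mean, a log2 fold change of -0.60 (SE 0.18) and an adjusted p of 0.136 by limma. The peak at the start itself, chr2:132253100-132253371, had 56 and 55 against 48 and 80, so that the groups overlapped. Rpa2, the middle subunit of RPA, had 264 and 228 against 209 and 238 at chr4:132768016-132768463. It was the third strongest of the 27 peaks, its groups overlapped, and its log2 fold change was -0.14 (SE 0.15, 95% interval -0.46 to 0.19).

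Rrm2, which encodes the small subunit of ribonucleotide reductase, the enzyme that makes deoxynucleotides, had 4 peaks along 2472 bases upstream of its start, more than any other of the genes. The peak at the start, chr12:24708146-24708273, had 32 and 33 against 21 and 33. The peak 579 bases upstream (chr12:24707563-24707760) had 31 and 20 against 23 and 23, and the groups of both peaks overlapped. The peak 1315 bases upstream (chr12:24706815-24707036) had 36 and 29 against 18 and 17, or 53.8% of the control mean. It had a log2 fold change of -0.85 (SE 0.29) and an adjusted p of 0.179 by limma. The farthest peak was too weak for the test and had values from 3 to 13.

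The strongest of the 27 peaks was at the start of Asf1b (ENSMUSG00000005470), which encodes a histone H3-H4 chaperone of proliferating cells. At chr8:83955283-83955791 it had 403 and 372 normalised reads in control and 285 and 332 in Taf4asKO, and it ranked 100 by control signal among the 2776 peaks of all genes that lay within 1000 bases of a start. Both Taf4asKO values were lower, with 79.6% of the control mean, a log2 fold change of -0.33 (SE 0.13) and an adjusted p of 0.23 by limma. Chaf1a, the large subunit of the chromatin assembly factor CAF-1, had 76 and 78 against 56 and 85 at chr17:56040135-56040423. Slbp, whose product binds the stem-loop of histone mRNAs, had 58 and 59 in both genotypes at chr5:33652527-33652790. Its log2 fold change was 0.00, with a 95% interval from -0.45 to 0.45, which does not show that the signal was alike.

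The sequences under the peaks were then searched on both strands for 4 motifs. These were CCAAT, the E2F letters TTTGGCGC, TTTCGCGC, TTTCCCGC and TTTGCCGC, the SP1 letters GGGCGG and the CHR letters TTTGAA and TTCGAA. Adjacent E2F matches can overlap, since the letters pair with each other on opposite strands. The central 200 bases of 23 of the 27 peaks (85.2%) held CCAAT, as did 78.5% of all 7196 peaks and 18.5% of the windows of the same length 1000 bases to either side of the 27 peaks. Of the 23 peaks within 1000 bases of a start, 21 (91.3%) held it, against 87.1% of such peaks of all genes. The 4 peaks without it in the centre were those of Gins1 and Orc6, the upstream peak of Mcm5 and the farthest peak of Rrm2. The Orc6 peak has 3 pentamers outside the central window. Start peaks of replication genes with 3 or more pentamers in the centre numbered 4 and had a median control signal of 175.0. The 6 peaks with 2 had 67.5, the 11 with 1 had 55.5 and the 2 with 0 had 79.0. The medians of these few peaks thus did not rise steadily with the number of pentamers. The start peaks of all genes had medians of 134.0, 68.8, 31.0 and 14.5 in the same order.

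In the start peaks of replication genes 44 pentamers were found in 22 peaks. Of these, 29 (65.9%) lay upstream of the start, against 77.4% of the pentamers in start peaks of all genes. Within 150 bases upstream lay 27 (61.4%), against 53.0%. Fewer, 16 (36.4%), lay on the strand of the gene, against 50.6%. Neighbouring pentamers of a peak were a median of 46.5 bases apart, against 43.0 for all genes. Asf1b and Slbp show both arrangements. Asf1b has 5 pentamers on both sides of its start, all opposite to the gene, while those of Slbp lie upstream on the gene strand.

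**Figure D4:**
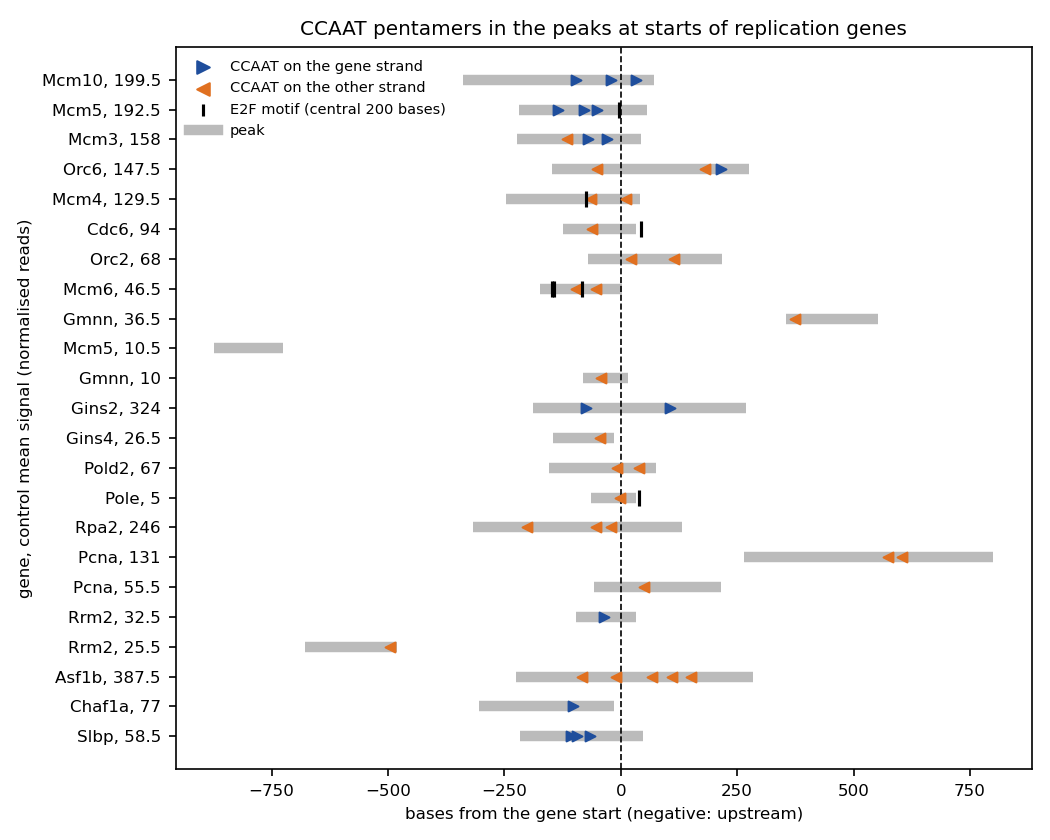
Positions of CCAAT pentamers (triangles, pointing along or against the gene) and of E2F motifs in the central 200 bases (black bars) in bases from the gene start (horizontal axis) for the 23 peaks within 1000 bases of the start of a replication gene (vertical axis, with the mean control signal in normalised reads), with the extent of each peak in grey. Most of the pentamers (27 of 44) lie within 150 bases upstream of the start, and 5 lie in the peak of Asf1b.

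The E2F letters stood in the central 200 bases of 6 of the 27 peaks (22.2%), those of Mcm4, Mcm5, Mcm6, Cdc6, Pole and Gins1, against 1.51% of all peaks and 3.21% of the start peaks of all genes. They lay 10 and 12 bases from the nearest CCAAT in Mcm4 and Mcm6, 42 and 48 bases from it in Pole and Mcm5, and 104 bases from it in Cdc6, and the Gins1 window holds no CCAAT. The peaks of Cdc6 and Pole, with 158 and 96 bases, are narrower than the window of 200 bases. In both, the E2F letters lie beyond the end of the peak. In the Mcm5 stretch printed above, the last capitals are the match in the centre of the peak, and the first capitals are 2 overlapping matches near its edge. The CHR letters were found in the central 200 bases of 0 of the 27 peaks, against 9.37% of the start peaks of all genes. Letters outside this window were not counted, and the Mcm10 stretch printed above holds TTCAAA, the complement of TTTGAA, there. The SP1 letters were found in the same window of 14 (51.9%), against 54.5% of the start peaks of all genes. Median GC content of the 27 windows was 62.5%, and that of the start peaks of all genes 60.0%.

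The promoters in RefSeq (GRCm38.p6), which run from 250 bases before to 50 after a gene start, allowed a look at the genes without a peak. Of the 59 genes 49 had an entry, and Mcm4, Gmnn, Gins1, Gins2, Gins4, Ccnd1, Ccne2, Pole, Prim2 and Rfc2 had none. CCAAT was found in 13 of 14 promoters of genes with a peak at the start (92.9%), Cdc6 being the exception. The RefSeq window of Cdc6 belongs to a start farther downstream, and the CCAAT in the Cdc6 peak lies outside it. It was found in all 5 promoters of genes whose peak had been given to a neighbour or to no gene (Mcm7, Cdc45, Ccnd3, Rpa1 and Rpa3). Of the 30 promoters without a peak near a start, 10 (33.3%) held it, against 42.1% of the promoters of protein-coding genes. These 10 were Mcm2, Orc1, Orc4, Gins3, Cdk2, Pola1, Prim1, Rfc1, Rfc3 and Rrm1. The E2F letters were found in 16 of the 49 promoters (32.7%), against 3.32% of protein-coding genes. They were found in 4 of 14 promoters of genes with a start peak (28.6%), namely Mcm3, Mcm5, Mcm6 and Cdc6, and in 11 of the 30 without a peak (36.7%), which included Cdt1, Orc1, Pola1 and Lig1. Of the promoters of all genes with a peak at the start 85.7% held CCAAT, so that its share in the replication genes with a peak is close to that of other bound genes. A match of letters is a description of the window and not a site of binding.

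**Figure D5:**
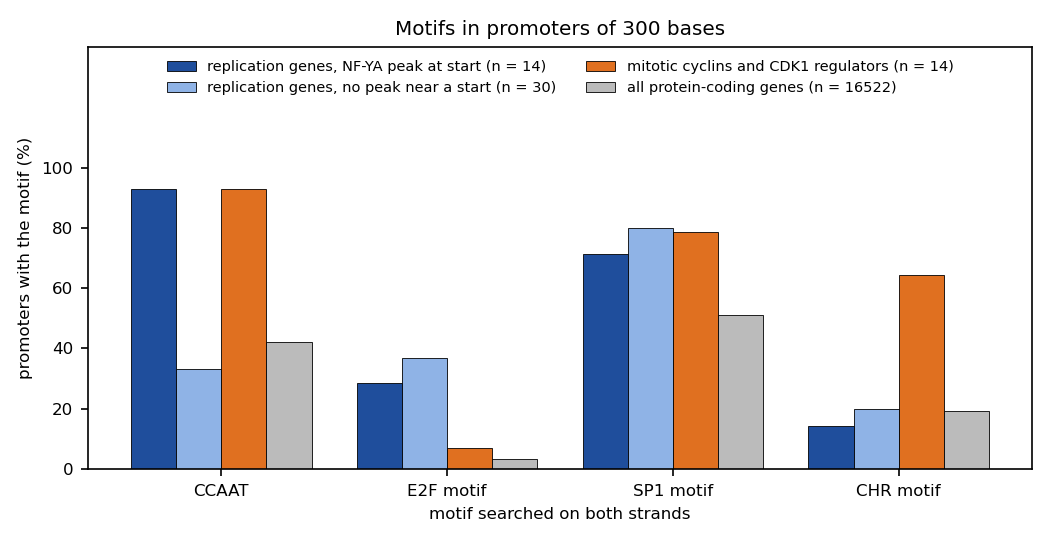
Share of promoters (vertical axis, in %) that hold each of 4 motifs (horizontal axis) for replication genes with an NF-YA peak at the start, replication genes with no peak near a start, mitotic cyclins and CDK1 regulators, and all protein-coding genes. CCAAT was found in 92.9% of the first group and 33.3% of the second, E2F letters in 28.6% and 36.7%, and CHR letters in 64.3% of the promoters of the mitotic genes.

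Lists of related genes were described for comparison. Among 62 other genes of replication and nucleotide synthesis, 21 (33.9%) had an assigned peak. Of their 24 tested peaks 0 were called, against 0.948% of all tested peaks. An unadjusted p under 0.05 by limma was found for 4, all lower, against 17.9% of all tested peaks. The median log2 fold change of the 24 was -0.16, against -0.04 for all tested peaks. Both Taf4asKO values lay below both controls at 12 of the 24 peaks. This was so at 28.6% of all tested peaks and at 59.0% of those with a mean of at least 100. The count of this list was not tested against these shares. The strongest were those of E2f3, with 331 and 300 normalised reads in control and 250 and 264 in Taf4asKO, of Top2a, with 298 and 303 against 228 and 279, and of Ticrr, with 244 and 235 against 172 and 214. At all 3 both Taf4asKO values were lower, with adjusted p-values of 0.277, 0.367 and 0.301 by limma.

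Among 21 mitotic cyclins and regulators of CDK1, 15 (71.4%) had a peak at the start, against 19 of the 59 replication genes. Of the 14 tested peaks 0 were called, against 0.948% of all tested peaks. An unadjusted p under 0.05 by limma was found for 2 (14.3%), both lower, against 17.9% of all tested peaks. The median log2 fold change of the 14 was -0.23. The 6 mitotic peaks with a mean of at least 100 had a median of -0.09, and the 8 such peaks of the other list had -0.26. A peak can reach this minimum through 1 genotype alone, as 3 of the 10 strong peaks of replication genes did, so that these medians are not set against each other. Both Taf4asKO values lay below both controls at 7 of the 14 mitotic peaks, against 28.6% of all tested peaks, and this difference was not tested. Cdca3 had 564 and 486 against 429 and 487, Cdc25c had 393 and 333 against 263 and 310, and Gtse1 had 111 and 150 against 111 and 129. The CHR letters were found in the central 200 bases of 9 of 18 peaks and in 9 of 14 promoters (64.3%) of the mitotic genes. The E2F letters were found in 1 such window (5.56%) and 1 promoter (7.14%). In the list of other replication and nucleotide genes, the E2F letters were found in 3 windows (11.5%) and 15 promoters (28.3%). The CHR letters were found there in 1 window (3.85%) and 10 promoters (18.9%). Of the 49 promoters of replication genes, 10 (20.4%) held the CHR letters. These shares were not tested against each other. CCAAT was found in 92.9% of the promoters of the mitotic genes, against 28 of the 49 promoters of replication genes (57.1%), with and without a peak.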

How the data were processed

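The 4 NF-YA libraries were grouped by their labels. Per the labels, the study's methods and the submitters' processing notes, which give the versions, the authors trimmed read pairs of 36 bases (Trimmomatic 0.39), aligned them to mm10 (STAR 2.7.11a), removed duplicates (Picard 3.1.1), called peaks against IgG with MACS, merged them and counted reads with featureCounts. The deposited values are scores, namely reads per peak that the authors normalised with DESeq2 1.36.0 and rounded. The study's methods name other versions of some of these tools. Rounding hides single reads in the Taf4asKO libraries, so that reads are approximate and no count model was run.

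Peaks with a mean of at least 10 were tested with limma 3.58.1 (R 4.3.3) on log2(value + 1), which understates changes of low peaks, with a trended variance. Simulated data were used as a check. With 2 libraries per group an exact permutation test cannot pass a threshold. Peaks were placed with GENCODE M21, which held 3972 of 3978 gene IDs, and motifs were searched with pysam 0.24.0. Every peak of the 59 genes with a mean of at least 10 is named, and of each comparison list the 3 peaks with the highest control mean. The members and lists were chosen with earlier results of these data known. Alternatives were other scalings, no minimum, another pseudocount, a replicate block, an adjusted p under 0.1 and leaving out each library. Centring on strong peaks and weights from the reads were added after seeing the data.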

Additional observations from a re-analysis of the deposited data

How the results depend on the processing

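The direction of the Ccne1 difference held under every alternative run, with log2 fold changes from -1.5 to -0.87, but its call did not. Of 26 peaks, 13 kept their direction under each alternative in which they were tested, 10 of them lower and 3 higher. Among the latter is Pole, which passes the minimum only through its Taf4asKO values. It is not tested without Taf4asKO replicate 2 and so shows no stable direction. Of 282 single values, 255 had the direction of the report. This count includes the fits with no minimum and with a replicate block. Their fold changes equal those of the main fit, so that their directions were fixed in advance. With equal medians 6 peaks of replication genes (Ccne1, Gins2, Mcm10, Mcm4, Mcm5 and Pcna) and 314 of all peaks were called. The members' median log2 fold change was then -0.34, against -0.17 for all tested peaks. With equal totals these medians were -0.04 and 0.1. With no minimum 0 member peaks and 0 of all peaks were called by limma, with 9 and 1015 at an unadjusted p under 0.05. Centring on strong peaks gave 78 calls over all peaks and a members' median of 0.04, against 0.19 for all tested peaks. Weights from the reads gave 3 member calls (Ccne1, Gins2 and Mcm10) and 264 calls over all peaks. At an adjusted p under 0.1 there were 2 (Ccne1 and Gins2) and 131 calls. With 1 library left out, 0 member peaks and 0 of all peaks were called by limma in each of the 4 fits, with 3 to 10 and 225 to 1088 at an unadjusted p under 0.05, and the members' median lay between -0.32 and -0.02. In these fits the lone library of a group is assumed to vary like the other group. A fit with the replicate number as a block called 0 member peaks (Ccne1 at an adjusted p of 0.0574) and 31 of all peaks. The labels do not say what a number shares, and the correlation of the deviations of same-numbered libraries was -0.09 for all tested peaks and 0.26 for strong ones (mean of at least 100). The cause of these changes was not tested. Control replicate 2, with 4.91 reads in the median peak, limits what can be said of weak peaks.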
